A study of Mus musculus with 6 samples.

Results

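Activator protein 1 (AP-1) is a family of transcription factors that bind DNA as pairs held together by a leucine zipper. FOS proteins pair mainly with JUN proteins, whereas JUN proteins can also pair with each other. The pairs bind the short palindromes known as TPA response elements and cAMP response elements. Many of these genes are immediate early genes, which T cells transcribe within minutes of receptor signaling through MAP kinases, and BATF with JUN and IRF4 is known for its role in effector Tregs. The 10 genes described here are Fos, Fosb, Fosl1, Fosl2, Jun, Junb, Jund, Batf, Atf3 and Maff. They were taken by symbol from a table of 32285 rows, and all 10 passed the filter on low counts. They were selected on their KO and WT values in these libraries, which were already known, so the values that compare KO with WT are given for them as a description, with no test.

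The RNA came from splenic cells sorted as CD4+CD25+ Tregs from C57BL/6 mice, in 3 WT and 3 KO libraries. KO mice carried ERCre, a Cre recombinase switched on by tamoxifen, and floxed Zfp335 (Zfp335f/f), a gene for a zinc finger transcription factor. The labels call the WT animals littermates of wild type and name no tamoxifen. The methods of the study describe ERCre controls and, for induced deletion, 6-week-old mice given 3 injections of tamoxifen at 10 mg/mL and killed on day 7. The labels and methods thus differ on whether the WT mice had Cre and drug, and the methods do not tie that schedule to these libraries. The results of the study show a heatmap of genes in ERCre and ERCre Zfp335f/f Tregs, with tamoxifen treatment described for the latter. The legend of that heatmap does not name the libraries. Cre of this kind is not restricted to Tregs, so other cells of the animal can lose the gene too, and neither its promoter nor the number of animals per library is given in the sources used here. P values therefore measure the spread between libraries.

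The authors deposited raw counts per gene, which summed to between 133283969 and 209041812 counts per library. They are given here as CPM, edgeR's measure of a count as a part of the library total, after TMM scaling with factors from 0.987 to 1.014. Zfp335 was between 115.2 and 124.4 CPM in WT and between 14.3 and 15.1 CPM in KO, the direction that the labels give. The 7 Treg markers summed to between 3575 and 3622 CPM in WT and between 3669 and 3724 CPM in KO, with Foxp3 and Il2ra lower and Ctla4 and Tnfrsf18 higher in KO by edgeR's test. Markers of other cells were low but moved with genotype. The 5 B cell markers summed to 45.4 to 49.5 CPM in WT and 21.1 to 23.0 CPM in KO, and all 5 were called lower. The 7 myeloid markers summed to 40.7 to 46.2 CPM in WT and 22.4 to 24.1 CPM in KO. Of these, Lyz2, Itgam, S100a8, S100a9 and Cd14 were called lower, whereas the macrophage and monocyte markers Csf1r (7.63 to 9.51 CPM in WT, 9.74 to 10.9 CPM in KO) and Adgre1 (1.47 to 1.77 and 1.57 to 1.78 CPM) had no call, with KO above WT in Csf1r. The 4 red cell markers, all called lower, summed to 28.3 to 33.5 CPM in WT and 1.25 to 1.53 CPM in KO. The 2 CD8 T cell and 3 NK cell markers had no calls. Xist, the RNA that coats the inactive X chromosome of female cells, was between 0.187 and 0.424 CPM in WT and between 123.9 and 144.7 CPM in KO. The labels give no sex, and since Xist and genotype split the libraries in the same way, they cannot be told apart.

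Stretches of promoter are shown for Fos, Jun, Junb and Maff, because they carry the 3 motifs found among the family's windows, through which CREB, ATF and AP-1 proteins can bind, and because they include the member that was lower in KO and the JUN gene that was most abundant. Each is the 150 bases before the RefSeq transcription start on GRCm38.p6, 5′ to 3′ on the gene's strand. Capitals mark TGACGTCA (the cAMP response element), TGACATCA (the form found in the Jun promoter) and the shorter core TGACG, read on both strands; TGACGTCA contains TGACG on each strand. The Fos stretch is chr12:85473740-85473889 (plus strand), the Jun stretch chr4:95052223-95052372 (minus strand), the Junb stretch chr8:84978749-84978898 (minus strand) and the Maff stretch, before the start of 1 of its transcripts, chr15:79347370-79347519 (plus strand).
Fos: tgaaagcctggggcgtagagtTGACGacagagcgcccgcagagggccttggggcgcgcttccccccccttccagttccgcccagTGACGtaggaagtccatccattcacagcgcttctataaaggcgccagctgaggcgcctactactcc
Jun: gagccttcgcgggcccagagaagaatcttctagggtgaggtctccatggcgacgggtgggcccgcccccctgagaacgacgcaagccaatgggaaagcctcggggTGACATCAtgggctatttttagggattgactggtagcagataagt
Junb: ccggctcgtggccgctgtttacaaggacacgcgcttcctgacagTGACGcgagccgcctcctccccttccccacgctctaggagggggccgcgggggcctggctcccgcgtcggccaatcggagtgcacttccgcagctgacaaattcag
Maff: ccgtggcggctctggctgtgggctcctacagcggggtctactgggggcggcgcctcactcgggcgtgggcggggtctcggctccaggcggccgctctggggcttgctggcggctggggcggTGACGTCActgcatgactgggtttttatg

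RefSeq windows of 250 bases before a start were at hand for 9 of the 10 genes, 11 windows in all, and none for Fosl1. TGACGTCA was found in Maff alone, 29 to 22 bases before that start, and in 1.55% of 32851 mouse windows of this length. TGACATCA was found in Jun, 45 to 38 bases before the start, and before another Maff start, against 2.93% of all windows. The core TGACG was in 7 of the 11 windows, those of 6 genes (Fos, Fosb, Junb, Batf, Atf3 and Maff), against 17.8% of all windows. It lay 66 to 62 and 129 to 125 bases before the Fos start and 106 to 102 bases before the Junb start. The TPA response element TGANTCA (6.75% of all windows) and the CArG box bound by serum response factor (1.47%) had no match in the 11 windows. This says only that these letters are not within the 250 bases before the RefSeq starts used. The window ended right before the annotated gene start for Fos, for Jun and in the Maff window without a motif. In the other windows the RefSeq start differed from it, though only slightly for Fosb and Junb. The Maff windows that held motifs lay inside the gene, which starts at 79346621. The Batf window, chr12:85686470-85686719, ran past the gene start at 85686669. The Atf3 window, chr1:191183334-191183583, lay inside the gene, which on the minus strand starts at 191218039. The Jund window, chr8:70697489-70697738, ended well before the gene start at 70698949. The Fosl2 window, chr5:32136222-32136471, lay inside the gene, which starts at 32135801. Genes on either side of the comparison shared a motif. Fos, which was lower in KO, held the TGACG core, and so did Maff, Fosb and Junb, which were higher.

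Across the family, 9 genes were higher in KO and 1, Fos, was lower, and the WT and KO values of none of the 10 overlapped. Among the 17307 genes tested, groups did not overlap in 19.3% with KO higher and in 19.1% with KO lower. Fosl2, Maff, Fosl1 and Atf3 were at least 1.5-fold higher in KO, a size that 6.17% of all tested genes reached, and no member was lower by that much (8.79% of tested genes). Fosb and Junb lay just under that fold, at 1.44 each, and Atf3 just over it, at 1.60. The study's methods add an adjusted P under 0.1 and P under 0.05, by DESeq2, to the fold. They name these cutoffs for Tregs of Foxp3Cre mice, not for these libraries. With the same cutoffs on edgeR's values here, 1203 genes or 6.95% of those tested passed. The median log2 fold change was 0.53 over the 10 members and -0.0042 over all tested genes. Nothing is read from these shares, since the members were chosen with this contrast in view. In bulk RNA, fewer cells that hold a transcript and less of it per cell cannot be told apart. The summed B cell, myeloid and red cell markers, each lower in KO as a sum though not for Csf1r and Adgre1, came to at most 49.5 CPM per list in any library, and the part of such cells in the AP-1 values was not tested.

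**Figure D1:**
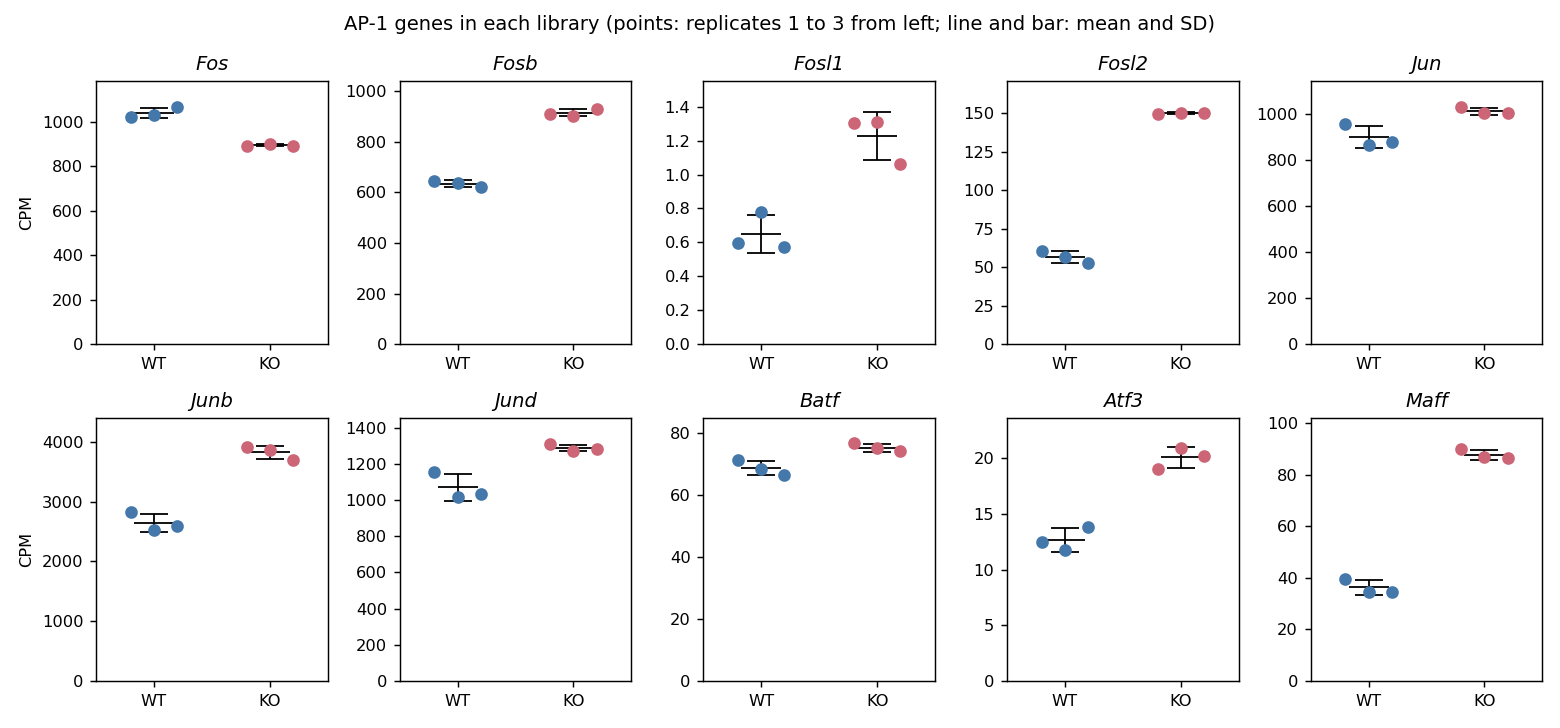
CPM (y axis, starting at 0, own scale for each gene) of the 10 AP-1 genes in the 3 WT and 3 KO libraries; points are libraries, and lines and bars the mean and SD. The WT and KO points of each gene lie apart, with KO above WT for 9 genes and below it for Fos.

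Fos encodes c-Fos, the founding member of the FOS class, with a strong transactivation domain and short-lived RNA and protein. It lies at chr12:85473890-85477273 on the plus strand of GRCm38. Fos was at 1023, 1031 and 1067 CPM in WT replicates 1, 2 and 3 and at 892.4, 900.4 and 892.9 CPM in KO replicates 1, 2 and 3. All 3 KO libraries lay below the lowest WT library, and the KO values were closer to each other than the WT values. Fos averaged 1040 ± 23.7 CPM in WT against 895.2 ± 4.51 CPM in KO (SD over 3 libraries each), with a log2 fold change of -0.22 (SE 0.031), or 0.861-fold.

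Fosb encodes FosB, a close relative of c-Fos that is also made as a truncated form lacking the activation domain; counts per gene cannot separate the forms. The gene lies at chr7:19302696-19310051 on the minus strand. Fosb was at 646.4, 637.1 and 620.3 CPM in the WT libraries and at 910.7, 902.1 and 929.7 CPM in the KO libraries. KO thus lay well above WT in every library, with a spread of similar size in both groups. The log2 fold change was 0.53 (SE 0.031), opposite in sign to that of Fos, although both are induced by the same signals in many cell types.

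Fosl1 and Fosl2 encode Fra-1 and Fra-2, FOS class proteins without the strong activation domain of c-Fos, which are typical of later or lasting AP-1 activity. Fosl2 (chr5:32135801-32157842, plus strand) was at 60.4, 56.4 and 52.8 CPM in WT and at 149.9, 150.5 and 150.3 CPM in KO. The 3 KO libraries were nearly equal, and each held more than the highest WT library by far. The log2 fold change of Fosl2 was 1.41 (SE 0.045), 2.65-fold, the largest of the family in either direction. Fosl1 (chr19:5447547-5455946, plus strand) was the rarest member, with 109, 148 and 77 counts in WT and 233, 272 and 205 counts in KO. These counts were 0.599, 0.777 and 0.572 CPM in WT and 1.31, 1.31 and 1.06 CPM in KO. The groups did not overlap, but the log2 fold change of 0.90 had the widest error of the family (SE 0.204). Fosl1 shares 52.6% of the 50-base stretches of its transcripts with Ccdc85b on the other strand, and with no word in the sources on whether counting used strand, reads of the 2 genes cannot be told apart. Ccdc85b itself differed by less than its spread, at 35.4 ± 1.82 CPM in WT against 36.2 ± 0.970 CPM in KO (SD, n = 3 each).

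Jun encodes c-Jun, the main activating partner of FOS proteins and a target of the JNK kinases, from a single exon at chr4:95049034-95052222 on the minus strand. Jun was at 957.7, 867.6 and 881.6 CPM in WT and at 1032, 1006 and 1006 CPM in KO. WT replicate 1 came closer to the KO libraries than the other WT libraries did, but the groups did not overlap. The log2 fold change was 0.17 (SE 0.039).

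Junb encodes JunB, which activates less strongly than c-Jun at many sites and is needed in effector Tregs and helper T cells. The gene lies at chr8:84974484-84978718 on the minus strand. Junb was at 2821, 2532 and 2588 CPM in WT and at 3908, 3860 and 3701 CPM in KO, and ranked 7 among the 17307 tested genes by CPM. Its KO libraries stood clear of WT by much more than the spread within either group. The log2 fold change was 0.53 (SE 0.042), the same size as that of Fosb. Jund (chr8:70698949-70700616, plus strand, single exon) encodes JunD, which is held to be the most constant JUN protein in resting cells. Jund was at 1156, 1018 and 1036 CPM in WT and at 1308, 1274 and 1282 CPM in KO, with a log2 fold change of 0.27 (SE 0.044). As with Jun, WT replicate 1 was the highest WT library, and it remained below all KO libraries. On the strand opposite Jund lies Gm11175, with which it shares 48.3% of its 50-base stretches. Gm11175 was far rarer, at 5.74 ± 1.66 CPM in WT against 11.0 ± 2.22 CPM in KO (SD, n = 3 each), and was not called (log2 fold change 0.90, adjusted p = 0.0507, edgeR). Jun and Junb share about 6% of such stretches each, 5.83% with Junos (0.310 CPM in WT, 0.290 CPM in KO) and 5.76% with Prdx2 (73.7 and 74.5 CPM), and neither partner was called.

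Batf encodes BATF, which has no activation domain of its own and binds as a trio with a JUN protein and IRF4 or IRF8. It lies at chr12:85686669-85709087 on the plus strand. Batf was at 71.4, 68.5 and 66.7 CPM in WT and at 76.8, 75.2 and 74.3 CPM in KO. The lowest KO library and the highest WT library were close, and the log2 fold change of 0.13 (SE 0.038) was the smallest of the family.

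Atf3, a stress-responsive factor that often represses its targets, lies at chr1:191170296-191218039 on the minus strand, where the small gene Gm24748 overlaps it on the other strand. Its values were 12.4, 11.7 and 13.8 CPM in WT and 19.1, 20.9 and 20.2 CPM in KO, with no overlap and a log2 fold change of 0.67 (SE 0.067). Maff (chr15:79346621-79359076, plus strand) encodes MafF, a small MAF protein without an activation domain, which pairs with CNC and BACH proteins and can pair with FOS proteins. Maff was at 39.6, 34.4 and 34.6 CPM in WT and at 90.0, 86.7 and 86.5 CPM in KO. In Maff, as in Fosl2, every KO library lay far above the highest WT library, and the log2 fold change was 1.27 (SE 0.052), or 2.42-fold.

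**Figure D2:**
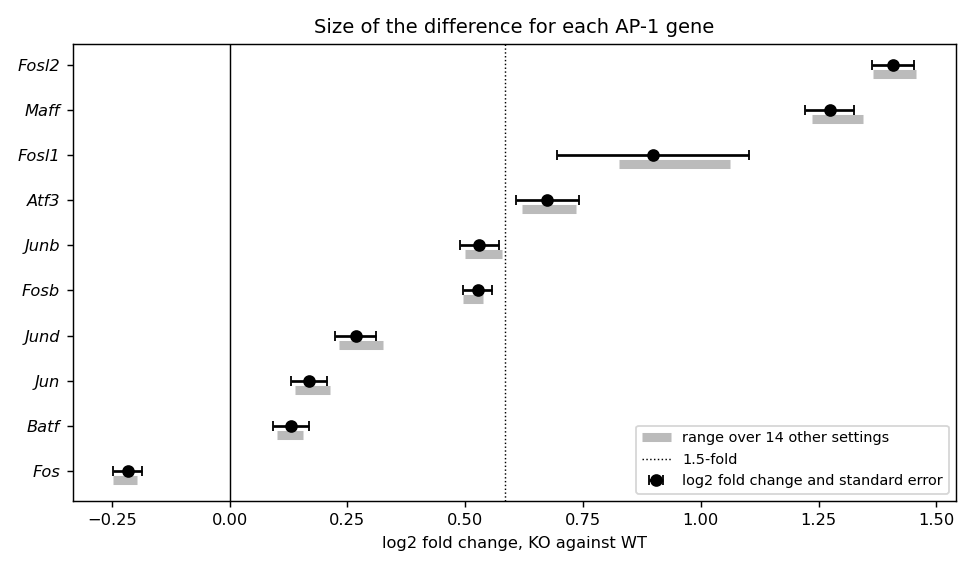
Log2 fold change of KO against WT (x axis) for the 10 AP-1 genes, with standard errors as bars; grey bands show the lowest and highest value over 14 other settings and the dotted line marks 1.5-fold. The values run from -0.22 for Fos to 1.41 for Fosl2, and no grey band crosses 0 or the dotted line.

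The WT libraries differed among themselves in a way that several members shared. WT replicate 1 had the highest WT value of Fosb, Fosl2, Jun, Junb, Jund, Batf and Maff, whereas Fos and Atf3 were highest in WT replicate 3 and Fosl1 in WT replicate 2. The share of all tested genes that were highest in WT replicate 1 was not counted. Over all genes with enough counts, chi-square per degree of freedom was 29.5 and 49.7 for the pairs with WT replicate 1. It was 19.6 for WT replicates 2 and 3. Leaving out each library in turn kept the direction of all 10 members and the count of 4 past 1.5-fold. WT replicate 3 was also the shallowest library.

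To compare the members with each other, CPM were divided by the length in kilobases of the longest annotated transcript. On this scale of level per length, Junb was the most abundant, at 1463 ± 84.8 in WT and 2113 ± 60.1 in KO (CPM per kilobase, SD, n = 3 each, for this and the following values). Jund followed at 641.5 ± 45.1 and 772.3 ± 10.5, then Fos at 493.4 ± 11.2 and 424.7 ± 2.14. Jun came next at 282.9 ± 15.2 and 318.1 ± 4.78, then Fosb at 167.8 ± 3.50 and 241.7 ± 3.73. Well below these stood Batf at 72.1 ± 2.47 and 79.0 ± 1.36 and Maff at 18.5 ± 1.51 and 44.8 ± 0.990. Fosl2 was at 8.65 ± 0.585 in WT and 23.0 ± 0.0530 in KO and Atf3 at 6.39 ± 0.537 and 10.1 ± 0.474. Fosl1 was the lowest, at 0.348 ± 0.0597 and 0.659 ± 0.0757. The order was the same in WT and KO, and no pair of neighbors in it overlapped in either group. The merged length of all exons, a choice made after the data were seen, gave the same order, as did leaving out each library.

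**Figure D3:**
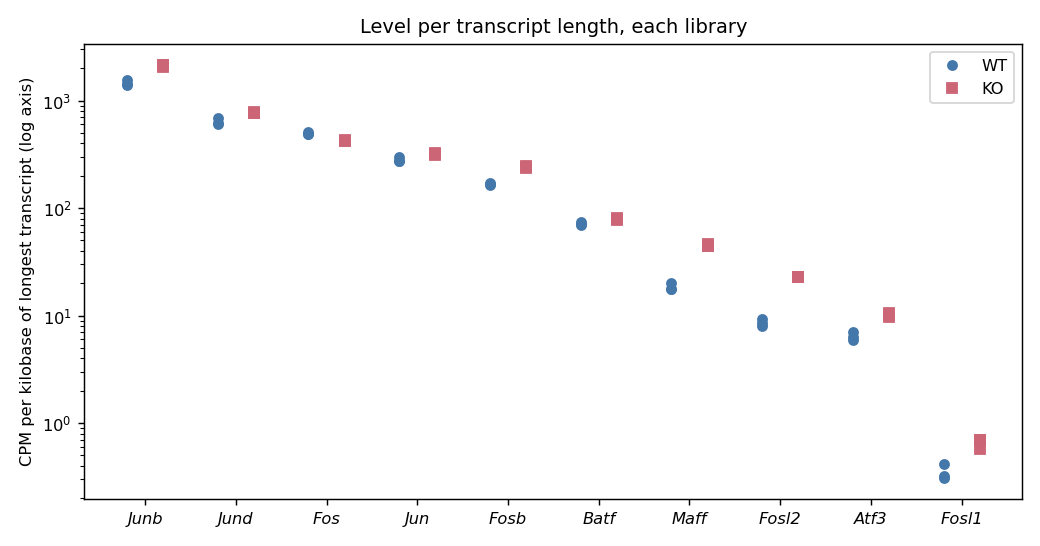
CPM per kilobase of the longest annotated transcript (log axis) for the 10 AP-1 genes in order of level, with 3 WT (circles) and 3 KO (squares) libraries. Junb is highest and Fosl1 lowest in both groups, and the order does not differ between them.

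Summed by class, the level per length of the 4 FOS genes differed little between the groups, with Fos lower and Fosb and Fosl2 higher in KO. The FOS class summed to 665.6, 666.4 and 678.6 in WT and to 687.7, 689.4 and 693.0 CPM per kilobase in KO, 1.03 times WT and without overlap. The 3 JUN genes summed to 2388 ± 145 in WT and 3204 ± 69.7 in KO, 1.34 times WT, and Batf, Atf3 and Maff together to 97.0 ± 3.72 and 133.9 ± 1.96, 1.38 times WT. As a share of the summed level of the family, Junb went from 46.4% ± 0.534 in WT to 52.5% ± 0.640 in KO and Fos from 15.7% ± 0.923 to 10.5% ± 0.185 (SD, n = 3). Jund made up 20.3% ± 0.486 in WT and 19.2% ± 0.254 in KO, so that its share was lower in KO although its level was higher.

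Ratios between members within a library do not depend on how libraries are scaled. The ratio of Fos to Fosb was 2.84, 2.90 and 3.09 in WT and 1.76, 1.79 and 1.72 in KO. Fosl2 was 0.0191, 0.0176 and 0.0160 of Fos in WT and 0.0542, 0.0539 and 0.0543 in KO. The ratio of Junb to Jun was 5.17 ± 0.0243 in WT and 6.64 ± 0.143 in KO, and that of the FOS class to the JUN class 0.281 ± 0.0179 in WT and 0.215 ± 0.00554 in KO (SD, n = 3). None of these ratios overlapped between the groups. The FOS pool thus held relatively more Fosb and Fosl2 and the JUN pool relatively more Junb in KO libraries.

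**Figure D4:**
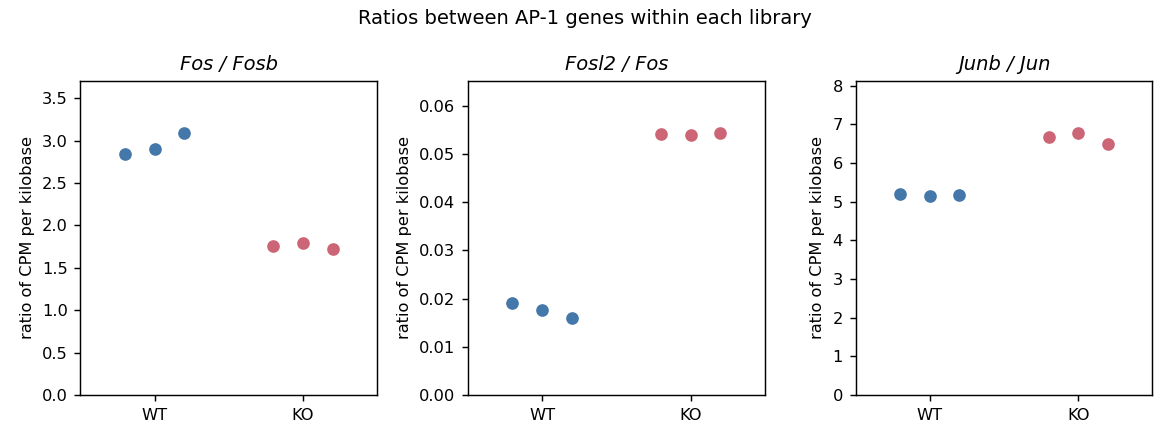
Ratio of levels per length within each library (y axis, from 0) for Fos to Fosb, Fosl2 to Fos and Junb to Jun, in 3 WT and 3 KO libraries. The Fos to Fosb ratio lies between 2.84 and 3.09 in WT and between 1.72 and 1.79 in KO.

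Other genes of the pathway were taken as 10 lists with 154 tested genes that are not members, and KO and WT were compared by the quasi-likelihood test of edgeR, with p values adjusted over all 17307 tested genes by the Benjamini-Hochberg method. At an adjusted p under 0.05, 24.1% of all tested genes were called, 12% higher and 12.1% lower in KO. Scaling by library size alone turned the 2082 higher and 2088 lower calls into 1622 higher and 2575 lower, with the median of all genes moved by -0.031 on the log2 scale. Of the 154 list genes, 51 rose, 26 fell and 77 had no call, so that 50% were called, and their median log2 fold change was 0.047. Like the members, the 10 lists were chosen with earlier results of these data known. Their calls, shares and p values are therefore given as a description, and nothing is read from a share above that of all tested genes.

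**Figure D5:**
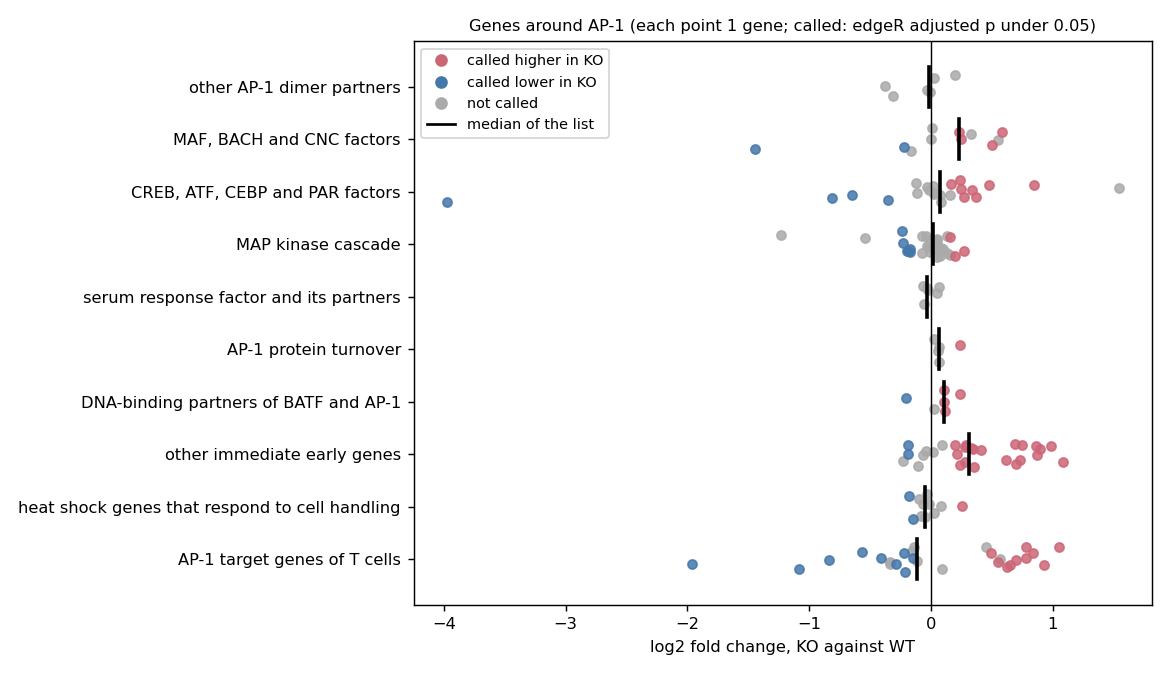
Log2 fold change of KO against WT (x axis) for each tested gene of the 10 lists, colored by call (edgeR, adjusted p under 0.05), with the median of each list as a vertical bar. The list of other immediate early genes has the largest number of calls, 20 higher and 2 lower, though not the largest share. The point near -4 is Cebpe, which had 5 counts in all KO libraries together.

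Genes that pair with AP-1 proteins differed by group in how many were called. The other dimer partners Batf2, Batf3, Jdp2, Atf1, Atf2 and Atf7 had 0 calls by edgeR, with 0 at an unadjusted p under 0.05 and 0 by DESeq2, and their log2 fold changes ran from -0.38 to 0.20. Among 11 tested MAF, BACH and CNC factors, which include the partners of MafF, 4 rose and 2 fell (median 0.23). Mafk, the small MAF gene next in kind to Maff, rose from 142.3 ± 10.4 to 213.9 ± 1.67 CPM (SD, n = 3 each; log2 fold change 0.59, SE 0.045, adjusted p = 8.07e-07, edgeR). Bach1, whose protein pairs with small MAFs to repress, rose from 27.6 ± 1.14 to 39.1 ± 1.70 CPM (log2 fold change 0.50), Mafg, also a small MAF gene, rose from 39.4 to 46.9 CPM (0.25), and Bach2, a repressor at AP-1 sites that restrains effector Treg genes, rose from 124.8 ± 4.14 to 146.6 ± 3.61 CPM (0.23, adjusted p = 4.50e-04, edgeR). Maf, which encodes the large factor c-Maf, fell from 245.5 ± 6.07 to 210.9 ± 8.50 CPM (-0.22, adjusted p = 8.07e-04, edgeR). Nfe2, a factor of red cell precursors and platelets, fell from 0.541 to 0.196 CPM (-1.45), and the red cell markers were lower in KO as well; the part of such cells in this value was not tested.

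Of 23 CREB, ATF, CEBP and PAR factors, bZIP relatives of AP-1, 8 rose and 4 fell (median 0.076). Nfil3, a repressor that also controls circadian genes, rose most, from 59.5 ± 1.22 to 106.9 ± 2.04 CPM (SD, n = 3 each; log2 fold change 0.85, SE 0.036, adjusted p = 2.75e-09, edgeR). Ddit3, the stress factor CHOP, rose from 23.0 to 32.2 CPM (0.48), and Atf4, the central factor of the integrated stress response, rose from 302.2 to 391.2 CPM (0.37). The genes that fell were the PAR factor gene Hlf (5.97 to 3.37 CPM, -0.81), Cebpd (1.51 to 0.963 CPM, -0.65), Cebpg (30.8 to 24.2 CPM, -0.35), and Cebpe, which had 37, 24 and 13 counts in WT and 0, 0 and 5 counts in KO. Cebpe and Cebpd are known from granulocytes and other myeloid cells. Of the 7 myeloid markers 5 were lower in KO, Csf1r and Adgre1 not among them, and the part of such cells in these values was not tested. Without KO replicate 2, Cebpd (adjusted p = 0.0585) and Cebpe (adjusted p = 0.0548, edgeR) were no longer called and 2 of the list fell.

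The lists of kinases and transcription factors that switch on Fos and Jun had medians close to that of all tested genes. Of 31 genes of the MAP kinase cascade, 3 rose and 6 fell, 29.0% of the list against 24.1% of all tested genes, and the median was 0.018. Map3k8 (Tpl2), a kinase at the top of the cascade, rose from 29.2 to 35.3 CPM (log2 fold change 0.28, adjusted p = 0.00144, edgeR). Map3k3 (0.20) and Map2k7, an activator of JNK (0.16), rose as well. Rps6ka1, the ribosomal S6 kinase RSK1, fell from 285.6 to 242.0 CPM (-0.24, adjusted p = 1.47e-04, edgeR), and Rps6ka3, of the same kinase family, fell as well (-0.19). DESeq2 and the fit without WT replicate 1 gave 6 genes that rose, and 3 fell without KO replicate 2 or without KO replicate 3. Serum response factor and its partners, which drive Fos through the CArG box, had 0 calls among 6 tested genes by edgeR, 0 at an unadjusted p under 0.05 and 0 by DESeq2, with a median of -0.028. Srf itself was at 188.2 ± 10.7 CPM in WT against 180.2 ± 2.80 CPM in KO (SD, n = 3 each; log2 fold change -0.063, adjusted p = 0.299, edgeR). Of 5 genes for the turnover of JUN proteins, Fbxw7, the substrate receptor of a ubiquitin ligase, rose from 27.9 to 32.9 CPM (0.24, adjusted p = 0.00368, edgeR), and without WT replicate 3 there were 2 that rose.

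Factors that bind DNA together with BATF or AP-1 differed from each other. Irf4, the partner of BATF and JUN in effector Tregs, rose from 130.5 ± 5.12 to 154.3 ± 1.08 CPM (SD, n = 3 each; log2 fold change 0.24, SE 0.036, adjusted p = 2.88e-04, edgeR), whereas Irf8, which can take its place, fell from 53.0 ± 1.91 to 46.0 ± 0.738 CPM (-0.20, adjusted p = 0.00291, edgeR). Irf8 is also high in B cells, whose 5 markers were lower in KO, and in myeloid cells, of whose 7 markers 5 were lower and Csf1r and Adgre1 were not, and the part of such cells was not tested. The NFAT genes Nfatc1, Nfatc2 and Nfatc3, partners of FOS and JUN at cytokine genes, were called higher by 0.11, 0.12 and 0.11 on the log2 scale, which made 4 of 6 tested genes that rose and 1 that fell (median 0.11). Those NFAT calls were not stable, with 1 of the list higher by library size scaling and without KO replicate 1, 2 or 3, and 2 higher by upper-quartile scaling and without WT replicate 2.

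Other immediate early genes, which are induced by the same signals as Fos and Jun, had the largest number of calls of the 10 lists. Of 28 tested, 20 rose, 2 fell and 6 had no call, and the median was 0.31. The share called was 78.6%, against 24.1% of all tested genes. It was not the largest share, which was 83.3% of the 6 tested genes that bind DNA with BATF or AP-1. Dusp4, a phosphatase that switches off MAP kinases, rose from 199.7 ± 8.57 to 424.9 ± 7.17 CPM (SD, n = 3 each; log2 fold change 1.09, SE 0.037, adjusted p = 4.62e-10, edgeR). The orphan nuclear receptor genes Nr4a2 and Nr4a3 rose from 40.3 to 79.5 CPM (0.98) and from 92.8 to 172.3 CPM (0.89), and Nr4a1, a common readout of receptor signaling, from 886.0 ± 47.8 to 1436 ± 39.8 CPM (0.70, adjusted p = 5.44e-08, edgeR). Smaller rises were found for Dusp1 (1005 to 1220 CPM, 0.28) and Ier2 (264.9 to 308.2 CPM, 0.22). Egr3, a target of NFAT, fell from 44.2 to 38.7 CPM (-0.19, adjusted p = 0.00317, edgeR) and Myc, a regulator of cell growth, from 158.0 to 139.0 CPM (-0.18). Egr1, which like Fos is driven by serum response factor, was at 263.3 ± 5.47 CPM in WT against 251.7 ± 3.67 CPM in KO (-0.065, adjusted p = 0.169, edgeR), and Zfp36, an RNA-binding protein gene, at 1193 ± 32.8 and 1205 ± 18.3 CPM (0.014, adjusted p = 0.800, edgeR). Scaling by library size alone gave 4 genes that fell.

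Immediate early genes and AP-1 genes also respond when tissue is dissociated and sorted, so 11 heat shock genes that respond to cell handling were counted beside them. Of these, 1 rose and 2 fell, 27.3% of the list against 24.1% of all tested genes. Hspa1a, an inducible chaperone gene, rose from 15.8 to 18.9 CPM (log2 fold change 0.26, adjusted p = 0.00468, edgeR), and the chaperone genes Hsph1 and Dnajb1 fell by 0.18 and 0.15 on the log2 scale, with a median over the list of -0.046. Without WT replicate 1 the list had 2 higher and 4 lower, and without a filter on low counts, by DESeq2 and by limma-voom 2 were higher. The part of handling in the AP-1 values was not tested.

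Known AP-1 target genes of T cells moved in both directions. Of 27 tested, 10 rose and 9 fell, with a median of -0.11. Plaur, the urokinase receptor gene, rose from 5.63 ± 0.458 to 11.7 ± 0.175 CPM (SD, n = 3 each; log2 fold change 1.06, adjusted p = 3.83e-07, edgeR). Il10, the gene of a suppressive cytokine, rose from 19.8 ± 0.860 to 37.7 ± 1.24 CPM (0.93, adjusted p = 3.00e-08, edgeR) and Areg, a tissue repair factor of Tregs, from 8.38 to 15.0 CPM (0.84). Ccl3 and Ccl4, chemokine genes of activated T cells and myeloid cells, fell from 4.89 to 1.26 CPM (-1.96) and from 1.87 to 1.05 CPM (-0.83). Mmp9, a neutrophil and macrophage protease gene, fell from 10.3 ± 0.450 to 4.88 ± 0.409 CPM (-1.08, adjusted p = 6.33e-07, edgeR). The myeloid markers Lyz2, Itgam, S100a8, S100a9 and Cd14 were lower in KO too, but Csf1r and Adgre1, which mark macrophages, were not, and the part of such cells in Ccl3, Ccl4 and Mmp9 was not tested. Il2ra, which encodes the CD25 used for the sort and is also among the Treg markers, fell from 479.6 ± 16.0 to 433.4 ± 5.99 CPM (-0.15, adjusted p = 0.00658, edgeR), a call lost without KO replicate 2 (adjusted p = 0.0523).

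Among 11077 genes with a mean log2 CPM of at least 1, the 5 whose pattern over the 6 libraries was most like that of Fos were Taf8, Skap1, Cep76, Sc5d and Irgm1. Their Pearson correlations with Fos in log2 CPM ran from 0.997 to 0.998 over 6 libraries that share the genotype split, so this is a description of likeness. As for Fos, all 5 were lowest in KO and highest in WT replicate 3. Taf8, a subunit of the general factor TFIID, was at 78.8, 78.9 and 82.3 CPM in WT and at 65.2, 67.2 and 65.7 CPM in KO. Skap1, an adaptor that links the T cell receptor to integrins, was at 181.3, 183.6 and 187.9 CPM in WT and at 152.9, 153.8 and 153.5 CPM in KO. The others encode a centrosomal protein (Cep76), an enzyme of cholesterol synthesis (Sc5d) and an interferon-induced GTPase (Irgm1), with log2 fold changes of -0.99, -0.31 and -0.44. No other AP-1 member was among the 5, which says nothing about the family, since all the others were higher in KO.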

How the data were processed

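RNA-seq of sorted Tregs was analyzed in 6 libraries, 3 WT and 3 KO, grouped by their titles. The table that the authors deposited holds counts for each gene symbol that were not normalized. The submitters' processing notes name HISAT2, DESeq2 and mm10; the counting tool, its annotation and its strand setting are not given in the sources used here. Reads shared by overlapping genes may therefore be counted for either. Of 32285 rows, 40 repeat a symbol, and a repeated symbol stands for its most counted row. The 10 members and the 10 lists of other genes were chosen with earlier results of these data known.

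Counts were fitted in R 4.3.3 with edgeR 4.0.16: filterByExpr (17307 genes kept), TMM scaling, glmQLFit with robust estimation and the newer quasi-likelihood method, glmQLFTest, and Benjamini-Hochberg adjustment, with calls at an adjusted p under 0.05. Standard errors are the log2 fold change divided by the root of the F statistic. The test was also tested on simulated data with known changes. Those data had the same spread setting for every gene and no changes among the rarest genes. They therefore do not cover uneven spread or known changes at low counts. Log2 CPM used a prior count of 2. No library pair agreed within sampling noise (chi-square per degree of freedom from 11.1 to 49.7), and none was left out. Named beside the members are Zfp335, up to 3 genes called higher and 3 called lower with the largest log2 fold change in each list, 11 genes fixed by name (Irf4, Bach2, Maf, Srf, Egr1, Nr4a1, Dusp1, Ier2, Zfp36, Hspa1a and Il2ra), 5 genes like Fos, markers, and, after their values were seen, genes that complete a short count or overlap a member. Positions and lengths come from GENCODE M21 on GRCm38 (mm10). Promoter windows come from RefSeq on GRCm38.p6, and protein sequences were not used here. Some single genes that the naming rule or the marker lists include are not reported here. Alternatives were other scalings, no filter, DESeq2 1.42.0, limma-voom (limma 3.58.1), the legacy quasi-likelihood method, the replicate number as a block, and each library left out in turn.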

Additional observations from a re-analysis of the deposited data

How the results depend on the processing

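Fold changes, counts of members higher or at least 1.5-fold higher in KO, and counts of called genes were recomputed under 14 alternatives. Counts of genes without overlap, sums by class, shares and ratios were not. No fold change turned in direction among the 10 AP-1 genes: 9 were higher and 4 at least 1.5-fold higher in KO in all 14. Their log2 fold changes ranged from -0.25 to -0.20 for Fos, from 0.10 to 0.16 for Batf and from 1.36 to 1.46 for Fosl2. The order by level per length was the same without each library. Scaling by library size alone moved Fos to -0.25 and Fosb to 0.50, past the spread of their replicates. Of the 77 called list genes, 65 kept their call and direction under every alternative, and 23 of the 77 others gained a call at least once. Called list genes numbered 46 to 58 higher and 20 to 33 lower. Over all tested genes, leaving out 1 library gave 1341 to 2495 higher calls, the lowest being 1341 without WT replicate 2 and 1386 without KO replicate 2, in fits with fewer samples.

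With the replicate number as a block, 52 list genes were higher and 26 lower, and 2143 and 2084 of all tested genes; the counts over the members were unchanged. The numbers mark no shared animal or day in the labels, and deviations of same-numbered libraries correlated by 0.0082 to 0.0326, so they were not treated as pairs; 5 of 6 libraries correlated best with their own number, a hint from the data only. At Fosl1, with 77 to 272 counts per library, depth limits the precision, and for Cebpe the KO libraries held 0, 0 and 5 counts.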

Other observations

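The coefficient of variation over the 3 libraries of a group was smaller in KO than in WT for all 10 AP-1 genes, although the SD itself was larger in KO for Fosb (13.2 CPM in WT, 14.1 CPM in KO) and Fosl1 (0.111 and 0.141 CPM). The coefficients ran from 2.08% to 17.1% in WT and from 0.231% to 11.5% in KO, with the highest of each in Fosl1. The same was found for 11021 of 17290 tested genes, 63.7%, and with 3 libraries per group no cause was tested. The lowest value was that of Fosl2 in KO, where the 3 libraries held 149.9, 150.5 and 150.3 CPM.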
